A study of Mus musculus with 8 samples.

Results

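Leukocytes resident in the pia mater and in the dura mater of control mice were compared cell type by cell type, to find the genes that set the same annotated cell type apart between these 2 layers of the meninges when no stroke had been induced. UMIs (unique molecular identifiers, each standing for 1 captured RNA molecule) were summed per library within each cluster of the deposited annotation. The 10 of 21 clusters with at least 30 cells in both layers were compared, which covered 2403 of 2810 annotated pia cells and 2263 of 2811 annotated dura cells, out of 32457 annotated cells in 8 libraries. These clusters were 2 clusters of CNS-associated macrophages (CAM_1 and CAM_2), the macrophage cluster Macro_2, myeloid dendritic cells (mDC1 and mDC2), T cells (Tc), NK cells, type 2 innate lymphoid cells (ILC2), B cells (Bc) and the cluster named Granulo_1.

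The pia is the thin inner membrane that lies on the surface of the brain, and the dura is the outer, fibrous membrane beneath the skull, with fenestrated vessels and direct vascular channels to the marrow of the skull. Macrophages of these borders derive in large part from yolk sac precursors, and in the dura they are replaced more readily from the blood. A subset with the hyaluronan receptor LYVE1 lies along vessels, and a subset rich in MHC class II molecules, which present antigen to CD4 T cells, is well known from the dura. Dura also houses mast cells, innate lymphoid cells, B cells and plasma cells that are rare on the brain side of the arachnoid barrier.

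All mice were adult male C57BL/6, and cells that lay outside the circulation at the time of sorting (negative for CD45 antibody given intravenously and positive for CD45 afterwards) were run on 10x Genomics droplets. Each of the control pia, control dura and control brain parenchyma was 1 library, as were the pia and the dura taken 24 h after middle cerebral artery occlusion (MCAO), an ischemic stroke model. The choroid plexus was removed, pia and dura were digested longer than brain, and only brain tissue was also passed over a Percoll gradient. For the control pia, the tissue label reads pia but the title speaks of brain parenchyma. It was used as pia, and Lyve1 and Mrc1, which mark border macrophages, were found at 523 and 991 CPM (UMIs of the gene scaled to a common total for each library and cluster) in its CAM_1 cluster against 0 and 10.4 CPM in that of the control brain. The brain cells of that cluster were also low in other macrophage markers, with Apoe at 1323 CPM against 57604 CPM in the pia. The contrast may therefore be between unlike cells. Mice of replicate experiments were pooled for each compartment, so a library gives no spread between animals, and how the mice divide among the libraries is not given in the sources used here. The controls are called untreated in some places and sham-operated in others.

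The control pia held 6591898 UMIs and the control dura 6867696, with medians of 2031 and 1676 UMIs per annotated cell, and mitochondrial genes took 2.01% and 1.96% of the UMIs. The libraries shared 10 cell barcodes. Since each layer is a single control library, the difference between control pia and control dura has no replicate check. Values are given as CPM within a cluster, with the ratio and an exact 95% interval that covers counting error only. A gene was counted as higher in one layer at a ratio of 2 or more, among genes expected to have 10 or more UMIs in the smaller of both sums. The pia and dura libraries taken at 24 h share no library with the control pair and give a second ratio of pia to dura, after stroke. The only test was edgeR's quasi-likelihood test over these 4 libraries with terms for condition and layer, which leaves 1 residual degree of freedom, so calls also made by DESeq2 are named first. Called genes had an adjusted p under 0.05 together with a fitted difference of 2-fold or more. The SE printed with edgeR's log2 differences was worked back from its F statistic, as the absolute difference divided by the square root of F. The dura library taken at 24 h was made with a later version of the kit than the other 3. In the pair at 24 h, layer and kit version therefore cannot be told apart. The same holds for whatever part of edgeR's layer term comes from that pair. A scaling that equalizes most genes (TMM) lowered the median log2 ratio in Bc from 0.64 to −0.07 and in ILC2 from 0.03 to −0.35. In NK it fell from −0.03 to −0.19, while in CAM_2 it rose from −0.04 to 0.16 and in Macro_2 from −0.08 to 0.04. The others moved by less than 0.1.

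The layers differed in which leukocytes they held. Macro_2 made up 37.2% of pia cells (exact binomial 95% interval 35.4 to 39.0) and 20.9% of dura cells (19.4 to 22.5). CAM_1 made up 20.4% against 7.33%, and CAM_2 10.4% against 2.95%. Lymphoid cells took larger shares in the dura, where T cells were 11.7% against 4.48% in the pia, ILC2 10.2% against 1.17%, B cells 5.44% against 2.14% and NK cells 5.02% against 1.64%. Both dendritic clusters were also larger shares of the dura, with mDC1 at 7.29% against 2.03% and mDC2 at 7.33% against 4.09%. Granulo_1 was at 2.35% in the dura and 1.96% in the pia, and at 2.90% and 1.20% among cells of 1000 UMIs or more. Clusters too small in one layer to be compared included mast cells, with 63 cells in the dura and 1 in the pia, the granulocyte cluster Granulo_2, with 146 and 10, and the microglial cluster Micro_1, with 24 and 207. At 24 h after MCAO CAM_1 was 21.9% of pia and 6.77% of dura cells, and ILC2 2.17% and 14.9%. A share depends on the other cells of the library and on the digestion, and the numbers of cells per layer are not given by these data.

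**Figure D1:**
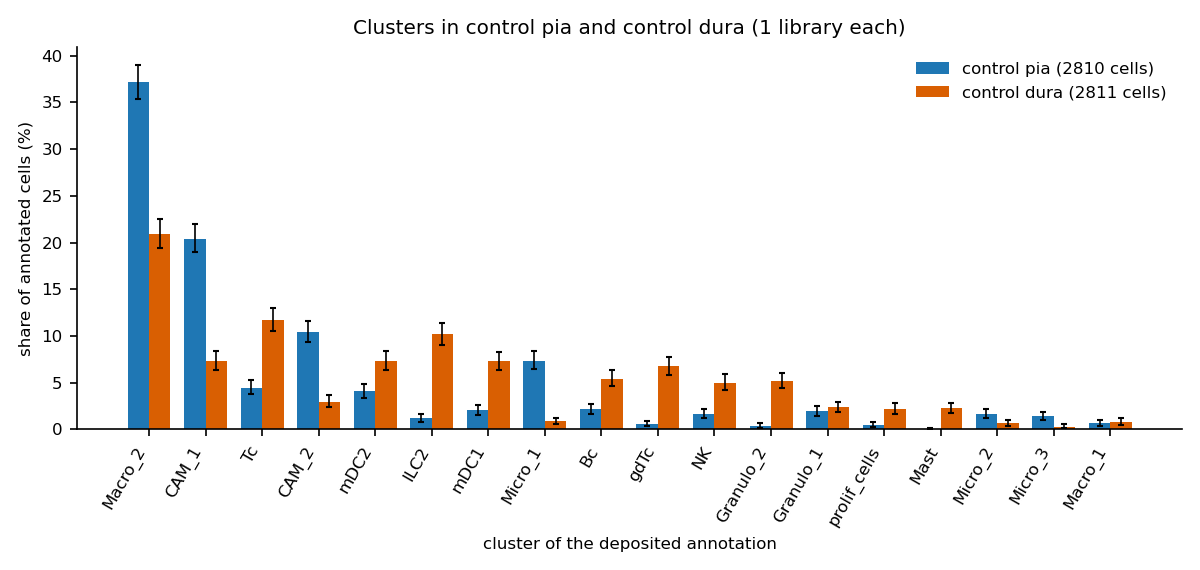
Share of annotated cells in each cluster (y axis, percent) in the control pia and the control dura, with exact 95% binomial intervals as error bars, for clusters with at least 40 cells in both together. Macro_2, CAM_1 and CAM_2 are the larger shares in the pia (37.2%, 20.4% and 10.4%), and ILC2, T cells and B cells are larger shares in the dura (10.2%, 11.7% and 5.44%).

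CAM_1, which with CAM_2 had the highest Pf4 and Mrc1 levels of the compared clusters in both layers, held 574 pia and 206 dura cells. In it 211 genes (4.78% of 4412 measured) were 2-fold or more higher in the control pia and 100 (2.27%) in the control dura. In the pair at 24 h, 3.68% of the genes measured in both pairs were 2-fold higher in pia and 2.65% in dura. Of the 202 pia genes measured in both pairs, 49 were past 2-fold again at 24 h (24.3% of the control list and 30.4% of the list at 24 h), as were 42 of 97 dura genes (43.3% and 36.2%). edgeR called 116 genes higher in pia (1.68% of 6900 tested) and 128 in dura (1.86%). DESeq2 also called 18 of those in pia and 43 of those in dura.

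Genes of cholesterol synthesis and uptake were higher in the pia. Sqle, the squalene epoxidase, was at 48.8 CPM in the control pia and 0 CPM in the control dura (67 and 0 UMIs), and at 52.2 and 2.50 CPM in pia and dura at 24 h. The control ratio is at least 7.56-fold against the 3 UMIs that a count of 0 allows, and edgeR gave a log2 difference of 4.86 ± 0.569 (SE, adjusted p = 3.89e-07). Cyp51, the lanosterol demethylase, was at 72.8 and 4.30 CPM in the control pair, from 100 and 2 UMIs, a ratio of 13.6 (4.57 to 142), and at 52.2 and 17.5 CPM at 24 h. Idi1, which makes the isoprenoid building block dimethylallyl pyrophosphate, was at 75 and 10.8 CPM and then at 44.1 and 6.24 CPM. Both pia libraries were above both dura libraries for each of these 3 genes.

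The list of 21 such genes was assembled after their values had been seen, so its counts describe the list and support nothing further. Of its 12 members measured in CAM_1, 11 were 2-fold or more higher in the control pia and 0 in the dura, where the background was 4.78%. Their median log2 ratio was 2.08 beside 0.02 over all genes, and 10 of 12 were past 2-fold in the pair at 24 h, with a median of 1.47. edgeR called 13 of the 17 it tested, all higher in pia, among them Fdps, Msmo1, Hmgcs1 and Insig1. Both tools called Sqle, Cyp51, Idi1, Fdps and Msmo1. After each cell was thinned to 1000 UMIs, 57.1% of pia CAM_1 cells and 19.0% of dura CAM_1 cells had a UMI of the list. In lymphoid cells of the same libraries (Bc, Tc, NK and ILC2) the shares were 37.9% and 28.9%.

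Pia CAM_1 cells had more Lyve1. It was at 523 CPM in the control pia and 146 in the control dura, and at 449 and 149 CPM at 24 h. The control ratio was 3.55 (2.79 to 4.66), and edgeR gave a log2 difference of 1.64 ± 0.168 (SE, adjusted p = 3.65e-08), with the call also made by DESeq2. Among cells thinned to 1000 UMIs, 35.9% of 552 pia cells and 14.8% of 189 dura cells had a Lyve1 UMI, against 1.05% and 0% of lymphoid cells, with median depths of 2324.5 and 2380 UMIs in CAM_1 and 1404 and 1226 in the lymphoid cells. Unthinned, the shares were 50.5% and 22.3%. The remaining 22 pia and 17 dura cells of CAM_1 had fewer than 1000 UMIs.

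Klf4, a Krüppel-like transcription factor of macrophages, was at 335 and 75.3 CPM in the control pia and dura and at 267 and 94.9 CPM at 24 h, a control ratio of 4.39 (3.15 to 6.47). Hgsnat, a lysosomal acetyltransferase that acts in heparan sulfate breakdown, was at 281 and 60.2 CPM and then at 229 and 72.4 CPM. Fcna, the lectin ficolin A, was at 116 and 28.0 CPM and then at 247 and 120 CPM. P2rx7, an ATP-gated ion channel, was at 167 and 51.6 CPM and then at 150 and 67.4 CPM. Both tools called all 4 higher in pia, and for each of them the lower pia library lay above the higher dura library except for Fcna, where the control pia (116 CPM) lay just under the dura at 24 h (120 CPM).

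Other genes shared by border macrophages were close in both layers. Mrc1, the mannose receptor, was at 991 and 849 CPM in the control pair (1.17-fold higher in pia, 1.04 to 1.31). Pf4, a chemokine characteristic of border macrophages, was at 3021 and 4066 CPM, and Cd163, the haptoglobin-hemoglobin scavenger receptor, at 462 and 402 CPM. Apoe, the lipid carrier, was at 57604 and 49836 CPM in the control pair and at 41454 and 54587 CPM at 24 h. Of the 24 measured genes of the border macrophage list, 4 were 2-fold higher in pia and 2 in dura, with a median log2 ratio of 0.06, and edgeR called 4 higher in pia and 2 in dura of 25.

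Hspa1a and Dnajb1, heat shock genes, were also higher in pia CAM_1. Hspa1a, which encodes the inducible HSP70 chaperone, was at 682 and 120 CPM in the control pair and 988 and 149 CPM at 24 h. The control ratio was 5.61 (4.32 to 7.55), and edgeR gave 2.57 ± 0.172 (SE, adjusted p = 2.67e-12). Dnajb1, its HSP40 partner, was at 637 and 288 CPM and then at 698 and 293 CPM, and DESeq2 made both calls too. Of 9 heat shock genes measured, 2 were past 2-fold in the control pia and 0 in the dura, with a median log2 ratio of 0.30, and edgeR called 3 of 10. Pooled over all cells outside CAM_1, Hspa1a was at 905 CPM in the pia and 124 CPM in the dura, a level that also depends on which clusters each layer held. Of the 10 compared clusters it was measured in 5, and it was 2-fold or more higher in the pia in all 5. Pia and dura were digested in the same way, and the part of tissue handling in this difference was not tested.

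Among secreted signals, the monocyte attractant Ccl12 was at 7334 and 3828 CPM in the control pair and 7181 and 3023 CPM at 24 h. Its control ratio of 1.92 (1.82 to 2.02) lay just under 2, and both tools called it over the 4 libraries. Ccl3, a ligand of CCR1, was at 1609 and 695 CPM and then at 1557 and 935 CPM, and its fitted log2 difference of 0.90 ± 0.153 (SE, edgeR adjusted p = 0.000172) stayed under 2-fold. Ccr1, a receptor for such chemokines, was at 336 and 144 CPM and then at 576 and 223 CPM. Of 13 chemokine genes measured, 3 were 2-fold higher in the control pia and 2 in the control dura.

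Antigen presentation genes went the other way in CAM_1. H2-Aa, which encodes the alpha chain of the I-A class II molecule, was at 797 CPM in the control pia and 1836 in the control dura, and at 336 and 1190 CPM at 24 h. H2-Eb1, an I-E beta chain, was at 298 and 789 CPM and then at 120 and 466 CPM. Cd74, the invariant chain that guides class II molecules through the cell, was at 6506 and 13515 CPM and then at 4195 and 9756 CPM. The control ratios were 2.31 (2.10 to 2.52), 2.65 (2.29 to 3.06) and 2.08 (2.01 to 2.15) in favour of the dura. edgeR gave −1.58 ± 0.159 (SE, adjusted p = 4.64e-08) for H2-Aa, −1.73 ± 0.164 (adjusted p = 1.05e-08) for H2-Eb1 and −1.20 ± 0.142 (adjusted p = 4.65e-07) for Cd74, and DESeq2 made all 3 calls.

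Of the 6 class II genes measured in CAM_1, 0 were 2-fold higher in the control pia and 3 in the control dura, against a background of 2.27%, with a median log2 ratio of −1.02. At 24 h 4 of 6 were past 2-fold in the dura, and edgeR called 4 of 6. Pooled over all cells outside CAM_1, Cd74 was at 71016 CPM in the pia and 54243 CPM in the dura, a level that also depends on which clusters each layer held. Among thinned CAM_1 cells, 18.3% of pia and 40.7% of dura cells had 3 or more class II UMIs. In lymphoid cells the shares were 21.6% and 16.4%. These include B cells, which carry class II genes themselves, so they give no background level for CAM_1. In B cells with under 20% immunoglobulin UMIs, H2-Aa was at 9560 CPM in the pia and 4635 CPM in the dura.

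Dura CAM_1 cells also had more Cfp, which encodes properdin, the stabilizer of the alternative complement pathway. It was at 138 CPM in the control pia and 611 in the control dura, and at 298 and 925 CPM at 24 h. The ratio was 4.43 (3.68 to 5.36) in the control pair, and edgeR gave −1.93 ± 0.161 (SE, adjusted p = 4.47e-10), as DESeq2 also called. Of the thinned cells 10.5% in the pia and 39.7% in the dura had a UMI of it, against 3.68% and 2.50% of lymphoid cells and, unthinned, 20.7% and 60.7%. Cfp was also higher in the dura cells outside CAM_1, at 299 CPM against 81.5 in the pia.

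Cd36, Lpl and Igf1 were higher in dura CAM_1. Cd36, a scavenger receptor for oxidized lipids, was at 85.2 and 329 CPM in the control pia and dura and at 93.0 and 245 CPM at 24 h, while the cells outside CAM_1 had 85.5 and 84.3 CPM. Lpl, the lipoprotein lipase, was at 2.91 and 32.3 CPM, from 4 and 15 UMIs, and then at 5.99 and 41.2 CPM. Igf1, an insulin-like growth factor, was at 152 and 318 CPM and then at 65.8 and 165 CPM. Both dura libraries were above both pia libraries for these 3 genes, and both tools called them. Of 13 genes of lipid handling and phagocytosis measured in CAM_1, 1 was past 2-fold in the control pia and 2 in the control dura, with a median log2 ratio of −0.10, and edgeR called 1 in pia and 5 in dura of 16.

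Spic, a transcription factor of iron-recycling macrophages of the spleen and marrow, was at 24.0 and 116 CPM in the control pair and 35.9 and 182 CPM at 24 h. Slc40a1, the iron exporter ferroportin, was at 88.1 and 198 CPM and then at 34.3 and 77.4 CPM, and only edgeR called it (adjusted p = 0.000149). The 9 measured genes of the iron and heme list had a median log2 ratio of −0.67, with 2 past 2-fold in the dura and 0 in the pia. Hmox1, which breaks heme down, was one of those 2, at 460 and 1077 CPM, and was equal at 24 h at 1113 and 1093 CPM. Gdf15, a stress-induced cytokine of the TGF-beta family, was at 13.1 and 90.3 CPM and then at 46.8 and 316 CPM, with a control ratio of 6.78 (3.88 to 12.7). Gpx3, a secreted glutathione peroxidase, was at 248 and 641 CPM and then at 732 and 1606 CPM. Lgals3 (galectin 3), Cxcr4 (the CXCL12 receptor), Mmp9 (a matrix protease), Mgst1 and Fxyd2 were called in the same direction by both tools, with control ratios from 3.73 to 5.43.

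Some of the widest control ratios of CAM_1 were smaller or absent in the pair at 24 h. They were picked as wide in the control pair, and the difference between the pairs was not tested. Ccl6, a CCR1 ligand, was at 188 CPM in the control pia and 1406 in the control dura, 7.48-fold higher in dura (6.47 to 8.68), and at 1185 and 2731 CPM at 24 h. Across the 4 libraries its log2 difference was −2.05 ± 0.635 (SE, edgeR adjusted p = 0.329). Of thinned cells 13% in the pia and 55.0% in the dura had a Ccl6 UMI, against 0.53% and 3.18% of lymphoid cells. Ccl9, its neighbour in the same chemokine family, was at 247 and 763 CPM and then at 1055 and 1050 CPM. Cd300ld, an immunoglobulin-like receptor of myeloid cells, was at 4.37 and 101 CPM (from 6 and 47 UMIs) and then at 25.6 and 86.1 CPM, and was called by edgeR only (adjusted p = 0.0434). Ttr, transthyretin, which the choroid plexus makes in large amounts, was at 83.0 and 6.45 CPM and then at 49.0 and 46.2 CPM, and was not called.

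Genes of cells outside the macrophage lineage also separated the CAM_1 sums. Ptgds, the prostaglandin D synthase that arachnoid and pial fibroblasts and the choroid plexus secrete, was at 288 and 19.4 CPM in the control pair and 423 and 12.5 CPM at 24 h (edgeR 4.52 ± 0.267, SE, adjusted p = 2.1e-13, with DESeq2 calling it too). It was at 128 CPM in the other pia cells and 5.68 CPM in the other dura cells. In the dura sum Igkc (the kappa light chain) was at 252 CPM against 11.7 in the pia, Ngp (a granule protein of immature neutrophils) at 114 against 7.28, and Jchain (the joining chain of plasma cells) at 86.0 against 0, at least 39.4-fold. The part of RNA from other cells in the CAM_1 differences was not tested gene by gene.

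**Figure D2:**
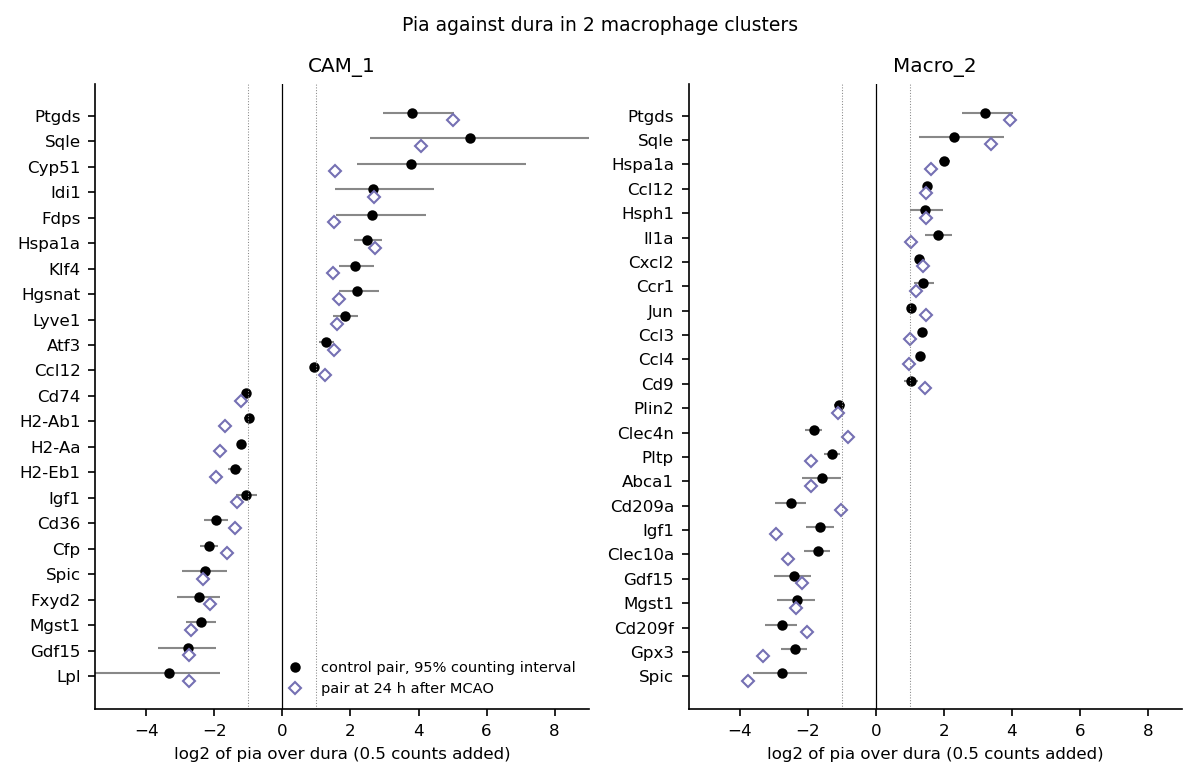
Log2 ratio of pia over dura (x axis) of named genes in CAM_1 and Macro_2. Black points are the control pair with 95% counting intervals, open diamonds are the pair at 24 h after MCAO, and dotted lines mark 2-fold. In CAM_1 Sqle (5.51), Hspa1a (2.49) and Lyve1 (1.83) lie on the pia side in the control pair and Cfp (−2.15), Cd36 (−1.95) and H2-Eb1 (−1.41) on the dura side. The intervals of Sqle and Lpl run past the axis.

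Macro_2 was the largest macrophage cluster, with 1044 pia and 588 dura cells, and it carried high class II levels in both layers. In it 175 genes (2.44% of 7185 measured) were 2-fold or more higher in the control pia and 282 (3.92%) in the control dura, which under TMM scaling became 251 and 216. At 24 h the shares were 2.92% and 3.42%. Of 147 pia genes measured in both pairs 51 were past 2-fold again (34.7% of the control list and 25.6% of the list at 24 h), and of 245 dura genes 84 (34.3% and 36.1%). edgeR called 82 genes higher in pia (1.09% of 7544) and 123 in dura (1.63%), of which DESeq2 also called 26 and 44.

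In pia Macro_2 4 of 10 heat shock genes were higher. Hspa1a was at 970 and 240 CPM in the control pair and 1153 and 371 CPM at 24 h, with a control ratio of 4.04 (3.63 to 4.53) and an edgeR log2 difference of 1.87 ± 0.149 (SE, adjusted p = 1.12e-07). Hsph1, the HSP110 co-chaperone, was at 85.5 and 30.8 CPM and then at 105 and 37.8 CPM. Of 10 heat shock genes measured, 4 were past 2-fold in the control pia and 5 in the pia at 24 h, 0 were past it in the dura in either pair, and edgeR called 4 higher in pia. The median log2 ratio was 0.78 beside −0.08 over all genes.

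Some chemokine and cytokine genes were higher in pia Macro_2 and others lay on the dura side. Ccl12 was at 2813 and 997 CPM in the control pair and 1940 and 702 CPM at 24 h. Cxcl2, which attracts neutrophils, was at 5935 and 2467 CPM and then at 6572 and 2525 CPM. Il1a, the cytokine interleukin 1 alpha, was at 150 and 41.9 CPM and then at 111 and 53.5 CPM. Ccl3 and Ccl4 had control ratios of 2.58 (2.37 to 2.81) and 2.44 (2.30 to 2.60), and both tools called these 5 genes. Ccl6 and Ccl9 lay on the dura side, at 312 and 1257 CPM and at 207 and 756 CPM, and neither was called across the 4 libraries. Of 15 chemokine genes measured 5 were past 2-fold in the pia and 4 in the dura, and edgeR called 4 of 16 in pia and 1 in dura.

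The sterol genes were on the pia side here too, with smaller ratios. Sqle was at 24.1 and 4.58 CPM in the control pair and 22.5 and 1.89 CPM at 24 h, and both tools called it. Of 16 measured list members 9 were past 2-fold in the pia and 0 in the dura, where the backgrounds were 2.44% and 3.92%. Their median log2 ratio was 1.20, and 9 of 16 were past 2-fold in the pia at 24 h. edgeR called 10 of 17 in pia, beside 1.09% of all genes tested. The list was assembled after the values were seen, so these counts support nothing further. Mmp14, a membrane-bound matrix protease, was at 52.7 and 11.1 CPM and then at 82.4 and 35.2 CPM, and Cd9, a tetraspanin, at 326 and 160 CPM and then at 387 and 142 CPM. Jun, an immediate early transcription factor, was at 1489 and 732 CPM and then at 1051 and 378 CPM. Both tools called these 3 genes.

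Several C-type lectin genes, grouped here after their values were seen, were higher in dura Macro_2. Cd209f was at 20.3 and 138 CPM in the control pair and 11.9 and 49.1 CPM at 24 h, with an edgeR log2 difference of −2.45 ± 0.224 (SE, adjusted p = 2.8e-07). Clec10a, the galactose-binding lectin CD301a, was at 36.9 and 121 CPM and then at 29.6 and 179 CPM, and Mgl2, its CD301b relative, at 277 and 912 CPM and then at 299 and 538 CPM. Clec4n, which encodes dectin 2, was at 78.0 and 276 CPM and then at 196 and 345 CPM. Cd209a, which marks the mDC2 cluster, was at 22.8 and 129 CPM and then at 35.6 and 72.4 CPM. Both tools called all 5. The border macrophage list, which holds several of them, had 1 of 23 measured genes past 2-fold in the pia and 6 in the dura, with the same split among edgeR's calls.

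Abca1, Pltp and Plin2, which act in lipid transport and storage, were higher in dura Macro_2. Abca1, a cholesterol exporter, was at 17 and 51.1 CPM in the control pair and 15.4 and 57.9 CPM at 24 h. Pltp, the phospholipid transfer protein, was at 97.1 and 236 CPM and then at 64.6 and 243 CPM, and Plin2, which coats lipid droplets, at 232 and 488 CPM and then at 417 and 901 CPM. Of 16 genes of lipid handling and phagocytosis measured, 5 were past 2-fold in the dura and 0 in the pia, and edgeR called 4 of 16. Igf1 was at 31.9 and 99.5 CPM, Spic at 7.47 and 51.1 CPM, Gdf15 at 15.8 and 84.4 CPM and Gpx3 at 30.7 and 161 CPM, on the same side as in CAM_1, and all 4 were called by both tools.

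Class II expression in Macro_2 was close in both layers. Cd74 was at 99839 and 99457 CPM (ratio of dura over pia 1.00, 0.997 to 1.01) and H2-Aa at 17411 and 18689 CPM. Of 10 class II genes measured 1 was past 2-fold, in the dura, and edgeR called 0 of 10. The contrast between this cluster and CAM_1 was not itself tested. Among thinned cells 992 of 993 in the pia and 583 of 583 in the dura had 3 or more class II UMIs.

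Of 9 monocyte genes measured in Macro_2, 6 were 2-fold higher in the control dura, against a background of 3.92%, with a median log2 ratio of −1.91. At 24 h it was 1 of 9, with a median of 0.06, and the difference between the pairs was not tested. Plac8, a gene of blood monocytes, was at 2.49 and 217 CPM (6 and 331 UMIs) in the control pair and 56.9 and 43.4 CPM at 24 h. Ly6c2, which marks inflammatory monocytes, was at 5.39 and 62.8 CPM and then at 4.74 and 12.6 CPM, and both tools called it. Cfp was at 27.0 and 463 CPM and then at 189 and 607 CPM, and DESeq2 called it where edgeR did not (adjusted p = 0.512). The monocyte receptor Ccr2 was equal, at 268 and 295 CPM.

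Microglial genes were somewhat higher in the control pia, where microglial clusters were also larger. Tmem119, a microglial membrane protein, was at 132 and 49.7 CPM in the control pair and 110 and 98.2 CPM at 24 h. Of 13 measured genes of the list, 4 were past 2-fold in the control pia, against 1 in pia and 2 in dura at 24 h. In the cells outside Macro_2 Tmem119 was at 215 CPM in the pia and 9.96 CPM in the dura. Ttr was at 190 and 6.54 CPM in the control pair and 78.9 and 27.7 CPM at 24 h, and was not called. F3, which encodes tissue factor, was at 14.5 and 0.654 CPM and Usp10, a deubiquitinase, at 11.6 and 0.654 CPM, each from 1 dura UMI, with ratios of 15.0 (3.73 to 901) and 12 (2.93 to 726). Usp10 was at 14.2 and 8.81 CPM at 24 h.

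Plasma cell and mast cell genes were among the widest differences on the dura side of Macro_2. Iglc1 and Igha, of the lambda light chain and the IgA heavy chain, were at 0 CPM in the control pia and at 63.5 and 64.1 CPM in the dura, at least 51.0-fold and 51.5-fold higher. The mast cell proteases Cma1 and Tpsb2 were at 0.415 and 62.8 CPM and at 0.83 and 64.1 CPM, from 1 and 2 pia UMIs, with ratios of 101 (26.5 to 6044) and 62.2 (20.8 to 647). A single dura cell gave 42.7% of the Cma1 UMIs and 61.2% of the Tpsb2 UMIs. The remaining dura cells held Cma1 at 911 CPM and Tpsb2 at 1158 CPM.

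CAM_2 held 293 pia and 83 dura cells and was shallower in the pia, with a median of 752 UMIs per cell against 1526. In it 52 genes (2.8% of 1858 measured) were 2-fold or more higher in the control pia and 58 (3.12%) in the control dura, or 88 and 39 under TMM scaling. At 24 h the shares were 2.49% and 3.31%. Of 51 pia genes 9 were past 2-fold again (17.6% and 19.6% of the 2 lists), and of 57 dura genes 17 (29.8% and 27.9%). edgeR called 14 genes higher in pia (0.368% of 3800) and 34 in dura (0.895%), and DESeq2 also called 8 of them, all higher in dura.

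The dura side of CAM_2 held class II and complement genes, as in CAM_1. Cd74 was at 4305 and 9918 CPM in the control pair and 2773 and 8430 CPM at 24 h, with an edgeR log2 difference of −1.37 ± 0.233 (SE, adjusted p = 0.00367). H2-Aa was at 666 and 1365 CPM and then at 265 and 1005 CPM. Of 6 class II genes measured 3 were past 2-fold in the control dura (2 under TMM scaling) and 4 at 24 h, with a control median of −0.99, and edgeR called 4. Cfp was at 207 and 873 CPM and then at 430 and 926 CPM. Ccl8, a chemokine of resident macrophages, was at 723 and 1917 CPM and then at 456 and 2717 CPM, and Clec12a, an inhibitory lectin of myeloid cells, at 66.0 and 380 CPM and then at 70.2 and 266 CPM. Both tools called Cd74, H2-Aa, Cfp, Ccl8 and Clec12a.

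On the pia side of CAM_2 Ptgds was at 622 and 22.4 CPM in the control pair and 456 and 0 CPM at 24 h, and Ttr had a log2 ratio of 4.22 and then 1.23. Ccr1 was at 192 and 22.4 CPM and then at 360 and 156 CPM, called by edgeR (adjusted p = 0.0299) and not by DESeq2. Ccl4 was at 622 and 44.7 CPM and Ccl3 at 534 and 82.0 CPM in the control pair, and both were higher in the dura at 24 h, Ccl4 at 274 and 426 CPM and Ccl3 at 325 and 383 CPM. Single cells gave 28.3% of the pia and 50.0% of the dura Ccl4 UMIs. Lgals3 at 47.1 and 544 CPM and Capg, an actin-capping protein, at 22.0 and 201 CPM were on the dura side. Single cells gave 41.1% of the control dura UMIs of Lgals3 and 63.0% of those of Capg. Both genes were near equal at 24 h, at 928 and 716 CPM and at 274 and 296 CPM. Lyve1 was at 402 and 246 CPM and then at 428 and 99.9 CPM, called by edgeR only.

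**Figure D3:**
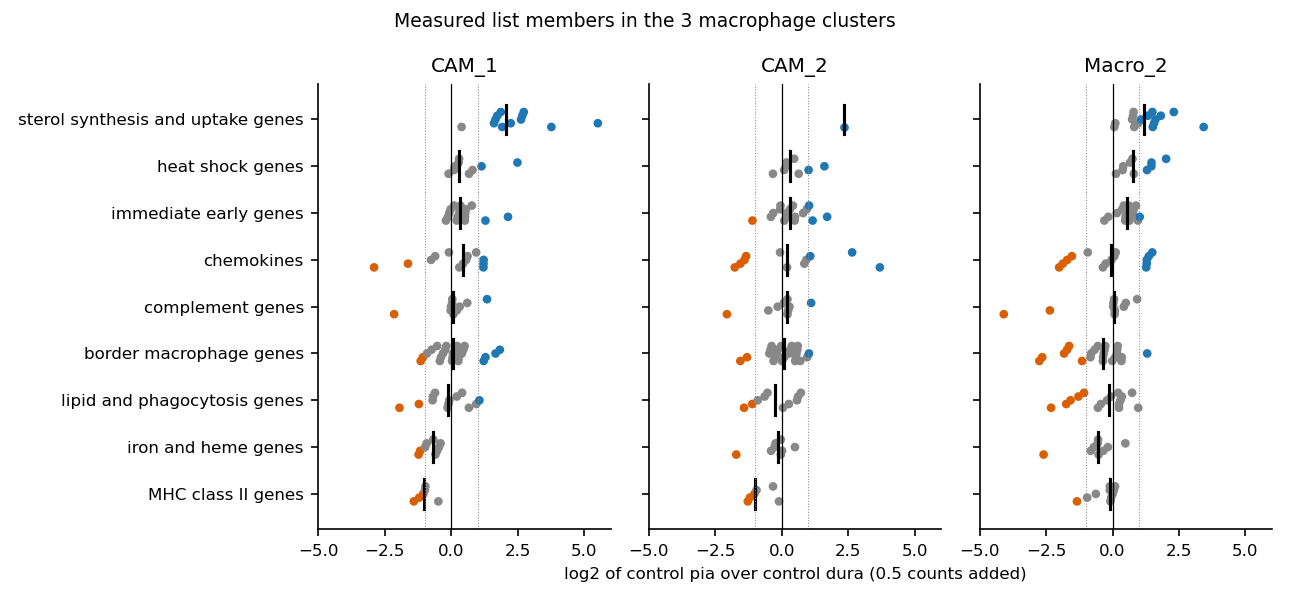
Log2 ratio of pia over dura in the control pair (x axis) for the measured members of 9 gene lists in CAM_1, CAM_2 and Macro_2. Each point is a gene, blue where it was 2-fold or more higher in pia and orange where it was 2-fold or more higher in dura, and black bars are medians. The sterol genes, listed after their values were seen, have medians of 2.08 in CAM_1 and 1.20 in Macro_2. The class II genes have medians of −1.02, −0.99 and −0.09 in CAM_1, CAM_2 and Macro_2.

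In T cells (126 pia and 329 dura cells) 37 genes (1.41% of 2621 measured) were 2-fold or more higher in the control pia and 95 (3.62%) in the control dura, and at 24 h the shares were 0.806% and 1.46%. Past 2-fold again were 3 of 37 pia genes (8.11% and 14.3% of the 2 lists) and 12 of 94 dura genes (12.8% and 31.6%). edgeR called 7 genes in pia (0.155% of 4529) and 11 in dura (0.243%), and 3 of these were also called by DESeq2. Pia T cells had more transcripts of the CD8 co-receptor, with Cd8a at 471 and 189 CPM in the control pair and 353 and 191 CPM at 24 h, and Cd8b1 at 651 and 252 CPM and then at 461 and 256 CPM. edgeR called both (adjusted p = 0.0133 and 0.0102) and DESeq2 neither. Of thinned T cells 53.6% of 97 in the pia and 24.0% of 171 in the dura had a Cd8a or Cd8b1 UMI. S100a6, a calcium-binding protein raised in effector and memory T cells, was at 1517 and 650 CPM and then at 981 and 559 CPM, and both tools called it. Cd3g and Trbc2, parts of the T cell receptor complex, were equal, at 1871 and 1924 CPM and at 1895 and 2118 CPM.

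Genes of regulatory T cells were on the dura side of the control pair. Tnfrsf4, which encodes the co-stimulatory receptor OX40, was at 157 and 889 CPM in the control pair and 489 and 462 CPM at 24 h. Ctla4, an inhibitory receptor, was at 52.3 and 198 CPM and then at 55.7 and 42.7 CPM. A list of such genes was assembled after the values were seen, so its counts describe the list and support nothing further. Of its 6 members measured 4 were past 2-fold in the dura, with a median log2 ratio of −1.67. At 24 h 1 of 5 was past 2-fold in the dura. The difference between the pairs was not tested, and edgeR called 0 of 5. The lineage factor Foxp3 had 0 UMIs in the pia and 3 in the dura. The rule for named genes also gave Ccl12 (250 and 41.2 CPM), Cxcl2 (436 and 90.6 CPM) and Apoe (3725 and 1169 CPM) on the pia side. A single pia cell gave 58.1% of the Ccl12 and 54.7% of the Cxcl2 UMIs, and the other pia cells held Apoe at 37611 CPM.

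NK cells numbered 46 in the pia and 141 in the dura. In them 23 genes (1.9% of 1210 measured) were 2-fold or more higher in the control pia and 54 (4.46%) in the control dura, or 15 and 80 under TMM scaling, and at 24 h it was 1.16% in each direction. Of 23 pia genes 7 were past 2-fold again (30.4% and 50.0% of the 2 lists), and of 53 dura genes 7 (13.2% and 50.0%). edgeR called 16 in pia (0.574% of 2788) and 14 in dura (0.502%), and DESeq2 3 of these. Gzmb, the cytotoxic protease granzyme B, was at 2695 and 513 CPM in the control pair and 1807 and 280 CPM at 24 h. The control ratio was 5.24 (4.08 to 6.80), the edgeR log2 difference was 2.57 ± 0.143 (SE, adjusted p = 1.99e-11), and DESeq2 called it too. Of thinned NK cells 61.9% of 42 in the pia and 17.6% of 102 in the dura had a Gzmb UMI.

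Gzma and Nkg7, also granule genes of NK cells, were under 2-fold in the control pair. Gzma, granzyme A, was at 2516 and 1796 CPM in the control pair and 1093 and 1402 CPM at 24 h, and Nkg7, a granule membrane protein, was at 4427 and 4447 CPM. Of 11 cytotoxic and NK genes measured 1 was past 2-fold, in the pia. Gzmc, granzyme C, was at 811 and 167 CPM and then at 529 and 23.6 CPM, with 50.8% of the control pia UMIs in 1 cell. Klra9, an inhibitory Ly49 receptor, was at 1306 and 435 CPM and then at 557 and 307 CPM. edgeR called Gzmc (adjusted p = 0.000208) and Klra9 (adjusted p = 0.000341), and DESeq2 neither. On the dura side Emb, the adhesion protein embigin, was at 179 and 1144 CPM and then at 385 and 1075 CPM, called by both tools. Cd69, an early activation and retention marker, was at 13.7 and 234 CPM, from 1 and 42 UMIs, and then at 117 and 90.6 CPM.

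ILC2 numbered 33 in the pia and 286 in the dura, and the pia sum of 35974 UMIs was the smallest of all, so few genes could be measured. In them 9 genes (1.72% of 524) were 2-fold or more higher in the control pia and 21 (4.01%) in the control dura, or 2 and 53 under TMM scaling, and at 24 h the shares were 1.53% and 4.21%. Past 2-fold again were 0 of 8 pia genes (0% of both lists) and 6 of 21 dura genes (28.6% and 27.3%). edgeR called 21 in pia (0.764% of 2749) and 25 in dura (0.909%), and DESeq2 6 of these. Ccl1, the CCR8 ligand, was at 389 and 1821 CPM in the control pair, from 14 and 505 UMIs, and at 119 and 290 CPM at 24 h. Gadd45b, a stress-inducible regulator, was at 500 and 1818 CPM and then at 693 and 1258 CPM, and Fos at 751 and 1637 CPM and then at 881 and 1931 CPM. Both tools called these 3 higher in dura, together with Lmo4, and Lilrb4a and H2afz higher in pia.

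Of the genes that define ILC2 and their effector products, Gata3, Areg and Calca were under 2-fold apart in the control pair. Gata3, the lineage factor of ILC2, was at 834 and 1187 CPM in the control pair, Areg, the repair factor amphiregulin, at 1723 and 1666 CPM, and Calca, the neuropeptide CGRP, at 1723 and 1508 CPM. The type 2 cytokine genes were sparse, with Il5 at 1 and 42 UMIs and Il13 at 3 and 23 UMIs in the control pair. These raw counts came from unequal sums of 35974 UMIs in the pia and 277266 in the dura. Of 6 genes measured of the type 2 and type 17 list 1 was past 2-fold, in the dura, and edgeR called 0 of 13. Apoe at 4086 and 1179 CPM, Cstb (cystatin B) at 973 and 343 CPM and Ifngr1 (the interferon gamma receptor) at 1445 and 624 CPM were on the pia side, and at 24 h at 1187 and 1382, 287 and 508, and 1336 and 1203 CPM. The pia at large held more Apoe, at 36812 CPM outside ILC2 against 15734 CPM in the dura.

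B cells numbered 60 in the pia and 153 in the dura. In them 169 genes (23.1% of 732 measured) were 2-fold or more higher in the control pia and 29 (3.96%) in the control dura, and at 24 h the shares were 3.52% and 5.66%. Past 2-fold again were 15 of 149 pia genes (10.1% and 65.2% of the 2 lists) and 10 of 25 dura genes (40% and 27%). edgeR called 29 in pia (1.19% of 2439) and 23 in dura (0.943%), and DESeq2 6 of these. The split turned with the scaling, to 28 in pia and 79 in dura under TMM and to 48 and 115 of 1087 when immunoglobulin genes were left out of the totals. Immunoglobulin genes took 44.4% of the dura B cell UMIs and 8.63% of those of the pia. Cells with 20% or more of their UMIs from these genes numbered 13 of 153 in the dura and 2 of 60 in the pia, and the 13 held 54.1% of all dura B cell UMIs. Without those cells 50 genes were past 2-fold in the pia and 94 in the dura of 1043 measured.

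The immunoglobulin genes themselves rested on few cells. Igha was at 13.3 and 72030 CPM in the control pair (1 and 22392 UMIs) and at 81286 and 21832 CPM at 24 h, the other way round. Ighg2b, an IgG heavy chain, was at 0 and 10512 CPM, at least 264-fold, with 94.9% of its UMIs in 1 dura cell. Iglc1 was at 292 and 53720 CPM, with 97.7% in 1 dura cell, and at 39.7 and 77192 CPM at 24 h. Cd79a and Ms4a1, of the B cell receptor and CD20, were at 1688 and 1338 CPM and at 465 and 389 CPM, and lay the other way at 1881 and 2468 CPM and at 489 and 841 CPM without the immunoglobulin-rich cells. Both tools called Slpi, a protease inhibitor, higher in dura, at 79.8 and 714 CPM and then at 251 and 2009 CPM. Without the immunoglobulin-rich cells Slpi had 0 UMIs in the control pia and 3 in the control dura, so its control difference rested on those cells.

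Apoe and C1qc, which macrophages express at high levels, were on the pia side of B cells. Apoe was at 6500 and 1081 CPM in the control pair and 4169 and 1444 CPM at 24 h, and C1qc, of the first complement component, at 452 and 41.8 CPM and then at 688 and 102 CPM, both called by both tools. Cxcl2 was at 585 and 48.3 CPM and Cd14, a co-receptor for lipopolysaccharide, at 465 and 57.9 CPM, with 40.9% of the pia UMIs of Cxcl2 in 1 cell. Of 3 measured genes of the border macrophage list 1 was past 2-fold in the pia and 2 in the dura (0 and 2 under TMM scaling), with a median log2 ratio of −1.39. In cells outside the cluster Apoe was at 37004 CPM in the pia and 15829 in the dura. The part of RNA from macrophages in these differences was not tested.

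In mDC1 (57 pia and 205 dura cells) 33 genes (1.85% of 1782 measured) were 2-fold or more higher in the control pia and 92 (5.16%) in the control dura, and at 24 h the shares were 3.71% and 5%. The pair at 24 h was past 2-fold again for 9 of 32 pia genes (28.1% and 13.6% of the 2 lists) and 21 of 92 dura genes (22.8% and 23.6%). edgeR called 84 in pia (1.55% of 5417) and 75 in dura (1.38%), and DESeq2 only 4 of these. The dura side held genes of plasmacytoid dendritic cells, the type I interferon producers of the lineage. Siglech, which marks them, was at 15.6 and 278 CPM in the control pair, from 2 and 178 UMIs, and at 40.3 and 169 CPM at 24 h. edgeR gave −2.61 ± 0.362 (SE, adjusted p = 4.85e-10), and DESeq2 did not call it. Of thinned mDC1 cells 0 of 36 in the pia and 47 of 201 in the dura (23.4%) had a Siglech UMI, against 4.15% and 2.91% of macrophages.

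A plasmacytoid list was assembled after the values were seen, so its counts describe the list and support nothing further. Of its 11 measured genes 9 were past 2-fold in the control dura and 0 in the pia, where the dura background was 5.16%. Their median log2 ratio was −2.28. At 24 h 7 of 11 were past 2-fold in the dura, and edgeR called 10 of 15. Both tools called Ly6d, a lymphoid surface antigen, at 226 and 727 CPM and then at 63.6 and 519 CPM, and Iglc3, a lambda light chain these cells transcribe, at 39.0 and 287 CPM and then at 10.9 and 201 CPM. All pia UMIs of each came from 1 cell. Clec9a and Xcr1, which mark conventional type 1 dendritic cells, were at 62.3 and 101 CPM and at 77.9 and 136 CPM. Cd7, a lymphoid co-receptor, was at 31.2 and 409 CPM, and lay the other way at 24 h at 483 and 342 CPM.

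On the pia side of mDC1 C1qa and C1qb, of the first complement component of macrophages, were at 1215 and 49.9 CPM and at 2228 and 62.4 CPM in the control pair. At 24 h they were at 72.9 and 84.7 CPM and at 217 and 171 CPM. Cxcl13, which attracts B cells, was at 818 and 6.24 CPM with all its 105 pia UMIs in 1 cell, and at 0 CPM in both libraries at 24 h. Both tools called Lilrb4a, an inhibitory receptor of myeloid cells, at 187 and 35.9 CPM and then at 698 and 70.5 CPM.

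In mDC2 (115 pia and 206 dura cells) 87 genes (2.43% of 3581 measured) were 2-fold or more higher in the control pia and 103 (2.88%) in the control dura, and at 24 h the shares were 3.14% and 2.22%. Past 2-fold again were 13 of 75 pia genes (17.3% and 11.9% of the 2 lists) and 12 of 94 dura genes (12.8% and 15.6%). edgeR called 2 in pia (0.0415% of 4817) and 7 in dura (0.145%), and DESeq2 2 of these. The genes that name the cluster and its mature cells were close in both layers. Cd209a was at 5053 and 4548 CPM, Fscn1, the actin bundler of migrating dendritic cells, at 540 and 561 CPM, and Ccr7, their lymph node homing receptor, at 503 and 618 CPM. Cfp was at 392 and 423 CPM.

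Among the widest mDC2 ratios, Retnla (283 and 1.56 CPM, from 107 and 1 UMIs), an alternatively activated macrophage gene, had all its pia UMIs in 1 cell, and Lyz1, a lysozyme, at 98.0 and 7.81 CPM, had 91.9% in 1 cell. Hspa1a was at 509 and 108 CPM in the control pair and 340 and 356 CPM at 24 h. On the dura side Serpinb1a, a granulocyte protease inhibitor, Jchain and Iglc1 were at 67.1, 62.5 and 60.9 CPM against 0 CPM in the pia. These are at least 8.45-fold, 7.86-fold and 7.66-fold differences. Of 7 complement genes measured 4 were past 2-fold in the control pia and 0 at 24 h.

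Cells annotated Granulo_1 carried different genes in the 2 control libraries. They numbered 55 pia and 66 dura cells, with medians of 1005 and 2305 UMIs. In them 122 genes (8.57% of 1423 measured) were 2-fold or more higher in the control pia and 204 (14.3%) in the control dura, and at 24 h the shares were 2.42% and 3.71%. Past 2-fold again were 13 of 114 pia genes (11.4% and 38.2% of the 2 lists) and 19 of 200 dura genes (9.5% and 36.5%). edgeR called 0 of 2988 genes over the 4 libraries, with 116 at an unadjusted p under 0.05, and DESeq2 called 3. On the pia side C1qb and C1qc were at 7590 and 171 CPM and at 6619 and 269 CPM in the control pair, and at 886 and 1565 CPM and at 507 and 1400 CPM at 24 h, the other way round. Ccl12 was at 739 and 6.56 CPM and then at 93.1 and 44.9 CPM.

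On the dura side Chil3, a chitinase-like protein of classical monocytes and young neutrophils, was at 11.0 and 1581 CPM, from 1 and 241 UMIs, and at 4053 and 5335 CPM at 24 h. Plac8 was at 386 and 4533 CPM and then at 819 and 1015 CPM, and Tmsb10, an actin-binding thymosin, at 331 and 4520 CPM and then at 1832 and 2696 CPM. Of the markers fixed for the granulocyte clusters, some were low in the pia. S100a8 was at 0 and 144 CPM, Hp (haptoglobin) at 66.2 and 1030 CPM and Fn1 (fibronectin) at 11.0 and 394 CPM. S100a9 was low in both layers, at 11.0 and 32.8 CPM. Lyz2, also among the fixed markers, was high in both, at 34365 and 59189 CPM, and highest of the compared clusters in each layer. Of 12 measured monocyte genes 10 were past 2-fold in the dura and 0 in the pia, and of 12 border macrophage genes 10 were past it in the pia and 0 in the dura. At 24 h the same lists gave 2 of 12 in dura, and 1 in pia and 4 in dura of 8. Among cells thinned to 1000 UMIs, 24 of 28 in the pia had 3 or more UMIs of the C1q genes and fewer than 3 of Chil3, Plac8, Ly6c2 and Fn1 together, and 55 of 62 in the dura had the reverse. Several of these genes were named above for their ratios in the same libraries. The counts therefore describe how the UMIs spread over cells and are no separate support for the difference.

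**Figure D4:**
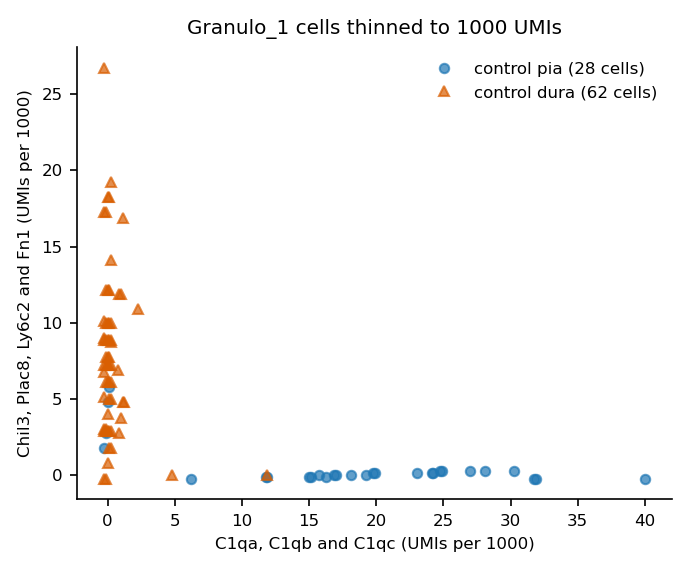
UMIs of C1q genes against UMIs of monocyte genes in each Granulo_1 cell thinned to 1000 UMIs, for 28 control pia and 62 control dura cells, with points slightly offset so that overlapping cells show. The pia cells lie along the C1q axis (24 of 28 have 3 or more C1q UMIs and fewer than 3 monocyte gene UMIs) and the dura cells along the monocyte axis (55 of 62 have the reverse). Several of the genes were named for their ratios in the same libraries.

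A few genes differed in nearly all clusters in which they were measured. Igkc was 2-fold or more higher in the dura in 10 of 10 clusters, with log2 ratios from −5.78 to −1.83, and over all cells it was at 811 CPM in the pia and 12181 CPM in the dura. Jchain and Iglc1 were on the dura side in 5 of 5 clusters each, and Igha, Ngp, Mgst1, Fxyd2 and Cenpa in 4 of 4. On the pia side Hspa1a and Ccl3 were past 2-fold in 5 of 5 clusters, Msmo1 and Insig1 in 4 of 4, and Ccr1 in 4 of 5. Over all cells Hspa1a was at 852 and 123 CPM in the control pair and 833 and 167 CPM at 24 h, and Msmo1 at 96.1 and 26.5 CPM and then at 85.6 and 26.9 CPM.

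Markers of cells that should be absent from a cluster differed between the libraries too. The summed level of 8 mast cell genes ran from 0 to 55.6 CPM over the 10 pia clusters and from 60.9 to 274 CPM over the dura clusters, and that of 12 early granulocyte genes from 14.6 to 55.6 CPM in the pia and, Granulo_1 apart (1798 CPM), from 150 to 389.5 CPM in the dura. Of 11 plasma cell genes the median cluster held 192 CPM in the pia and 793 in the dura. The 5 choroid plexus markers ran from 7.95 to 207 CPM in the pia and from 0 to 7.46 CPM in the dura, with 2 and 3 of them at 0. This sum was mostly Ttr, named above for its ratio. In CAM_2 Ttr alone was at 207 and 7.46 CPM, and in pia Macro_2 it was 190 of 193 CPM. Meningeal fibroblast markers were near equal over all cells, at 143 and 131 CPM. Within clusters they went either way, for example at 248 and 400 CPM in CAM_1, 114 and 210 CPM in Macro_2 and 165 and 13.1 CPM in Granulo_1. The part of such RNA in the differences within clusters was not tested.

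**Figure D5:**
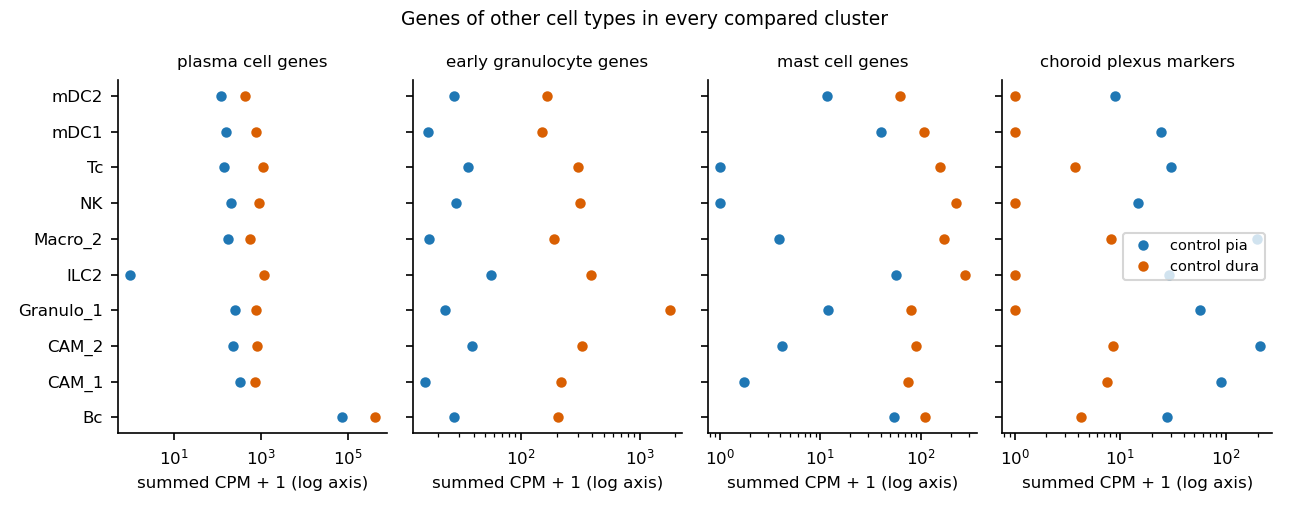
Summed CPM plus 1 (log axis) of the marker genes of other cell types within each of the 10 clusters, for the control pia and the control dura. Mast cell genes stay at or under 55.6 CPM in each pia cluster and at or above 60.9 CPM in each dura cluster. Choroid plexus markers reach 207 CPM in the pia and 7.46 CPM in the dura, both from Ttr alone in CAM_2.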

How the data were processed

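Single-cell RNA sequencing of sorted leukocytes gave 8 libraries, of which the control pia, control dura and control brain, and the pia and dura at 24 h after MCAO, entered here. The values are counts of UMIs per gene and barcode, which the authors deposited as filtered matrices after alignment (Cell Ranger 6.0 and mm10 in the submitters' processing notes, with the gene annotation not given in the sources used here). The deposited annotation gave each cell's cluster, and doublets had been removed by the authors before it was made. Barcodes outside the annotation (266 in the control pia and 293 in the control dura) were left out, and 0 columns of per-sample values stayed unused.

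Counts were summed per library and cluster and scaled to CPM. Ratios had 0.5 UMIs added, with exact conditional binomial 95% intervals, which cover counting error only because each layer is 1 library. A count of 0 was set to 3 UMIs for lower bounds. The genes named were the first 5 (macrophage clusters) or 3 (other clusters) in each direction by the interval bound nearest to 1, without mitochondrial and ribosomal protein genes, plus list members and genes past 2-fold in most clusters. Other genes, mostly those called by both tools, were chosen after their values were seen. Members, lists and comparisons were chosen with earlier results of these data known, and the sterol, plasmacytoid, regulatory T cell and mast cell lists were added after the values were seen. Where a listed gene was at 0 in one library, setting it to its bound left the medians given as they were.

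edgeR 4.0.16 (R 4.3.3, quasi-likelihood, TMM, Benjamini-Hochberg) was run per cluster on the summed counts of 4 libraries, and DESeq2 1.42.0 as an alternative. The ratios and edgeR were tested on simulated data, and DESeq2 was not. All other steps ran in Python 3.11.15 (pandas 2.3.3, scipy 1.17.1, numpy 2.4.6, with plots by matplotlib 3.10.9). Alternatives were TMM scaling of the ratios, a minimum of 20 or no minimum, thinning to 1000 UMIs, the mean of single-cell CPM, a pseudocount of 2, totals without immunoglobulin genes, B cells without cells rich in them, the pair at 24 h, no condition term, library size alone, and leaving out each library. A few genes that the rules would name are not reported here.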

Additional observations from a re-analysis of the deposited data

Results flagged for a closer look

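Igha in B cells was 2-fold or more higher in the dura of the control pair (log2 ratio of pia over dura −11.82) and in the pia at 24 h (1.90). C1qc in Granulo_1 was higher in the control pia (4.6) and in the dura at 24 h (−1.46). In both cases the ratio was past 2-fold in opposite directions in the 2 pairs, and the difference between the pairs was not tested, since each group is 1 library.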

How the results depend on the processing

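These data limit every contrast to 1 library per layer and condition. List medians, each less the median of all measured genes, were recomputed under TMM scaling and with a pseudocount of 2. Of these 208 values 206 moved by no more than the median half-width of the members' counting intervals. Those that moved further were of plasma cell genes, at −3.74 in Tc and −3.50 in mDC2 when the pseudocount was 2. Of the values of named genes 273 stayed, 63 moved and 14 turned direction, all in the pair at 24 h, where the log2 ratios were 1.90 for Igha in Bc, −0.64 for Ccl4, −0.24 for Ccl3 and 0.37 for Lgals3 in CAM_2, −0.82 for C1qb and −1.46 for C1qc in Granulo_1, −0.21 for Apoe and −0.80 for Cstb in ILC2, 0.39 for Plac8 in Macro_2, 0.38 for Cd69 in NK, −0.31 for Apoe in Tc, −0.21 for C1qa and 0.49 for Cd7 in mDC1, and −0.064 for Hspa1a in mDC2. In the pair at 24 h alone, 16 values stayed, 36 moved and 14 turned direction. The other settings recomputed the same control libraries. Named genes with too few UMIs at 24 h to be measured were left out of that pair.

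Genes past 2-fold in the control pair, in both directions together, numbered 107 in Bc and 55 in ILC2 under TMM. With a minimum of 20 UMIs fewer genes were measured, and 105 were past 2-fold in Bc, 145 in CAM_1, 43 in CAM_2, 153 in Granulo_1, 17 in ILC2, 247 in Macro_2, 26 in NK, 42 in Tc, 51 in mDC1 and 55 in mDC2. With no minimum, where single UMIs pass 2-fold, it was 4223, 3181, 3923, 3803, 4466, 3125, 3923, 3534, 3307 and 3049 in the same order. Thinning left 74 in Bc, 178 in CAM_1, 62 in CAM_2, 104 in Granulo_1, 17 in ILC2, 43 in NK, 44 in mDC1 and 57 in mDC2, and the mean over cells gave 100 in Bc and 250 in mDC1.

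edgeR's 52 calls in Bc, 244 in CAM_1, 48 in CAM_2, 0 in Granulo_1, 46 in ILC2, 205 in Macro_2, 30 in NK, 18 in Tc, 159 in mDC1 and 9 in mDC2 became 7, 61, 8, 3, 6, 72, 3, 3, 4 and 2 with DESeq2. Scaling by library size alone gave 80 in Bc, 6 in mDC1 and 14 in mDC2. Without the condition term, 11 were left in CAM_1, 3 in CAM_2, 2 in ILC2, 14 in Macro_2, 7 in NK, 7 in Tc, 11 in mDC1 and 0 in mDC2. Without the filter on low counts edgeR called 121 in Bc, 80 in CAM_2, 45 in Granulo_1, 38 in Tc and 43 in mDC2. Leaving out 1 library at a time, where the lone sample of a layer is assumed to vary like the others, the calls ran from 0 to 140 in Bc, 12 to 146 in CAM_1, 5 to 76 in CAM_2, 3 to 184 in Granulo_1, 0 to 13 in ILC2, 76 to 103 in Macro_2, 17 to 26 in NK, 26 to 37 in Tc, 28 to 405 in mDC1 and 0 to 68 in mDC2. The fits that left out a library also had no condition term, so their counts do not show the effect of the missing library alone. The cause of these changes was not tested.

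Among cells of 1000 UMIs or more the shares in pia and dura were 1.41% and 2.94% for Bc, 23.6% and 8.83% for CAM_1, 0.771% and 4.86% for ILC2, 42.5% and 27.2% for Macro_2, and 4.92% and 9.53% for mDC2, 1.20% and 2.90% for Granulo_1, with 4.07% for CAM_2 in the pia and 7.99% for Tc and 9.39% for mDC1 in the dura. With microglial clusters left out of the total, pia CAM_1 was 22.8%, CAM_2 11.6% and Macro_2 41.5%. Thin clusters such as pia ILC2 and Bc allow only large differences to be measured.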
